A study of Mus musculus with 16 samples.

Results

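The genes of lipid droplet proteins and triglyceride turnover were followed in mouse liver: *Cidec*, *Cidea*, *Plin2*, *Plin4*, *Plin5*, *G0s2*, *Pnpla2*, *Mogat1*, *Dgat2* and *Gpam*. These 10 genes were chosen by name, with no measured value in the rule, and are 10 of 52143 genes in the count table. Earlier results of these data were known when they were chosen, so counts of members against all genes are descriptions. They cover proteins of the droplet surface, a lipase and its inhibitor, and enzymes that build triglyceride.

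Hepatocytes store surplus fatty acids as triglyceride in droplets, each with a neutral lipid core, a phospholipid monolayer and a coat of proteins. Perilipins cover the surface and control which lipases reach the core, and CIDE proteins gather where droplets touch and pass lipid from the smaller to the larger droplet. In the glycerol phosphate route GPAM adds the first acyl chain and DGAT enzymes add the last, MOGAT1 offers another way to the diacylglycerol step, and PNPLA2 starts hydrolysis. CIDEA, CIDEC and PLIN4 are best known from adipose tissue and are found in fatty liver.

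Liver RNA was sequenced from 16 male C57BL6/J mice in 4 groups of 4, and the question was how the livers respond to a high-fat diet (HFD) and to a loss of the receptor FGFR4. The mice were 6 weeks old when they were put on chow or on an HFD with 60% fat for 12 weeks. Chow and HFD mice were injected with saline, and Chow/FGFR4 KD and HFD/FGFR4 KD mice with an siRNA against *Fgfr4* at 3 mg/kg every 2 weeks, which was joined to N-acetylgalactosamine, a sugar that hepatocytes take up. KD stands for knockdown. The control mice received no siRNA of any kind, so the siRNA as such and the loss of FGFR4 cannot be told apart. Each column of the study's heat maps is given as a mouse, and the 4 libraries of a group were taken as 4 mice. Levels are given as CPM, the usual scale that divides a count by the library total, after scaling between libraries with TMM factors.

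Positions are in GRCm38, and all 10 genes are protein coding. *Cidec* (ENSMUSG00000030278) lies on chromosome 6 from 113424634 to 113435760, on the minus strand. *Plin4* (ENSMUSG00000002831, 56100591 to 56109803) and *Plin5* (ENSMUSG00000011305, 56111601 to 56117596) are neighbours on the minus strand of chromosome 17 with a gap of 1797 bases between them. *Plin2* (ENSMUSG00000028494) is on chromosome 4 from 86648386 to 86670060. *G0s2* (ENSMUSG00000009633, 193272161 to 193273217) and *Mogat1* (ENSMUSG00000012187, 78510991 to 78538173) are both on chromosome 1. *Pnpla2* (ENSMUSG00000025509, 141455198 to 141460743) and *Dgat2* (ENSMUSG00000030747, 99153658 to 99182719) are both on chromosome 7, and *Gpam* (ENSMUSG00000024978) is on chromosome 19 from 55067268 to 55127238. Of the 31-base words in their transcripts, 5.048% in *Plin2* and 0.6813% in *Plin5* also occur in another gene, and none do in the other members, so sharing of reads could touch *Plin2* slightly.

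Promoters are shown for *Cidec* and *Plin4*, which passed the test in the diet comparison, and for *Plin2*, a relative of *Plin4* that did not. That of *Mogat1*, which passed in a separate fit with more genes, is also shown. Each run is the 250 bases before a RefSeq start site in GRCm38.p6, 5′ to 3′ on the strand of the gene, with matches to the searched motifs in capitals. The *Cidec* window is chr6:113435761-113436010 (minus strand), the *Mogat1* window chr1:78510810-78511059 (plus strand), the *Plin4* window chr17:56109783-56110032 (minus strand) and the *Plin2* window chr4:86670060-86670309 (minus strand).
Cidec: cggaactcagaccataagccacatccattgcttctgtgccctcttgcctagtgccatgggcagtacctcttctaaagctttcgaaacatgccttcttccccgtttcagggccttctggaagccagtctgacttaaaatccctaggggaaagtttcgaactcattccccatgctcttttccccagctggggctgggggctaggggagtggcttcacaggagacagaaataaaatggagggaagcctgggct
Mogat1: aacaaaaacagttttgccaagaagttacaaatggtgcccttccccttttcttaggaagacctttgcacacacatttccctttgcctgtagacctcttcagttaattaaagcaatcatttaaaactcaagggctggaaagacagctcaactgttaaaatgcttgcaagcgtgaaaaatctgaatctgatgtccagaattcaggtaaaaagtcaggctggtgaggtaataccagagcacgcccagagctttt
Plin4: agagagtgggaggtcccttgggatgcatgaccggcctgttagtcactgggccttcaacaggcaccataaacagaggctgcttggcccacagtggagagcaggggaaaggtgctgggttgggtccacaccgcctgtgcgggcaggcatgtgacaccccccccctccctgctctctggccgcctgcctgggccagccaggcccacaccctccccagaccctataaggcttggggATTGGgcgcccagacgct
Plin2: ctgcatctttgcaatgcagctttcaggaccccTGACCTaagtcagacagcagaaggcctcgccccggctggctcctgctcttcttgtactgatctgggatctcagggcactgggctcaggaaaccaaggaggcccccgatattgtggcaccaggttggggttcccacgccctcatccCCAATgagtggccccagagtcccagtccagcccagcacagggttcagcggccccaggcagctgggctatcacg
The motifs, read on both strands, were AGGTCA (the half-site of many nuclear receptors), that half-site repeated with 1 base between, CACGTG (an E-box), TATAAA and CCAAT. Of 32851 promoter windows of this length, 14% held AGGTCA, 0.0335% the spaced repeat, 6.02% CACGTG, 12.4% TATAAA and 33.8% CCAAT. In the printed windows, *Plin2* had AGGTCA with its first base 218 bases before the start and CCAAT 73 bases before it, and *Plin4* had CCAAT 18 bases before the start. The *Cidec* and *Mogat1* windows held none of these letters. RefSeq windows were found for 8 of the 10 genes, 11 windows in all, and the spaced repeat, CACGTG and TATAAA were in none of them. *Cidea* and *Dgat2* had no entry.

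Total counts per library ran from 3445949 to 5976449. *Fgfr4* was 29.7 ± 4.57 CPM (mean ± SD, n = 4) in Chow, 4.78 ± 1.60 in Chow/FGFR4 KD, 25.7 ± 4.25 in HFD and 3.74 ± 1.35 in HFD/FGFR4 KD, with no overlap between treated and control libraries. The library HFD/FGFR4 KD 1 stood apart. On the first principal component of the 500 most variable genes without the members, which held 45.9% of the variance, it scored -6.22, while the Chow libraries scored from -21.3 to -4.95 and the other HFD/FGFR4 KD libraries from 16.6 to 20.6. The HFD libraries were also split on this component. HFD 1 and 3 scored 25.6 and 30.2, and HFD 2 and 4 scored 5.89 and 9.47. Because HFD/FGFR4 KD 1 stood apart, members' changes printed for comparisons with the HFD/FGFR4 KD group are also given without this library. The 7 hepatocyte markers together made between 53100 and 76100 CPM in a library. Most of this was *Alb*, with group means from 45500 to 51800 CPM, while those of *Asgr1* ran from 279 to 318 CPM.

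Low counts limited part of the set. *Cidea* had at most 3 counts in 9 of 16 libraries and *Mogat1* in 4. Both fell short of the filter as worded by the study, which drops genes under 1 CPM in more than 4 libraries, and the other 8 passed it. It left fewer genes here than the paper reports for liver, so whether the study itself dropped *Cidea* and *Mogat1* is not settled. Under this filter they could not be tested, so they were fitted with a looser filter, which asks for 1 CPM in 4 libraries or more. The HFD group alone, where they are high, could carry a gene past that filter, so their results are given as values and are not added to the counts of members that passed.

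**Figure D1:**
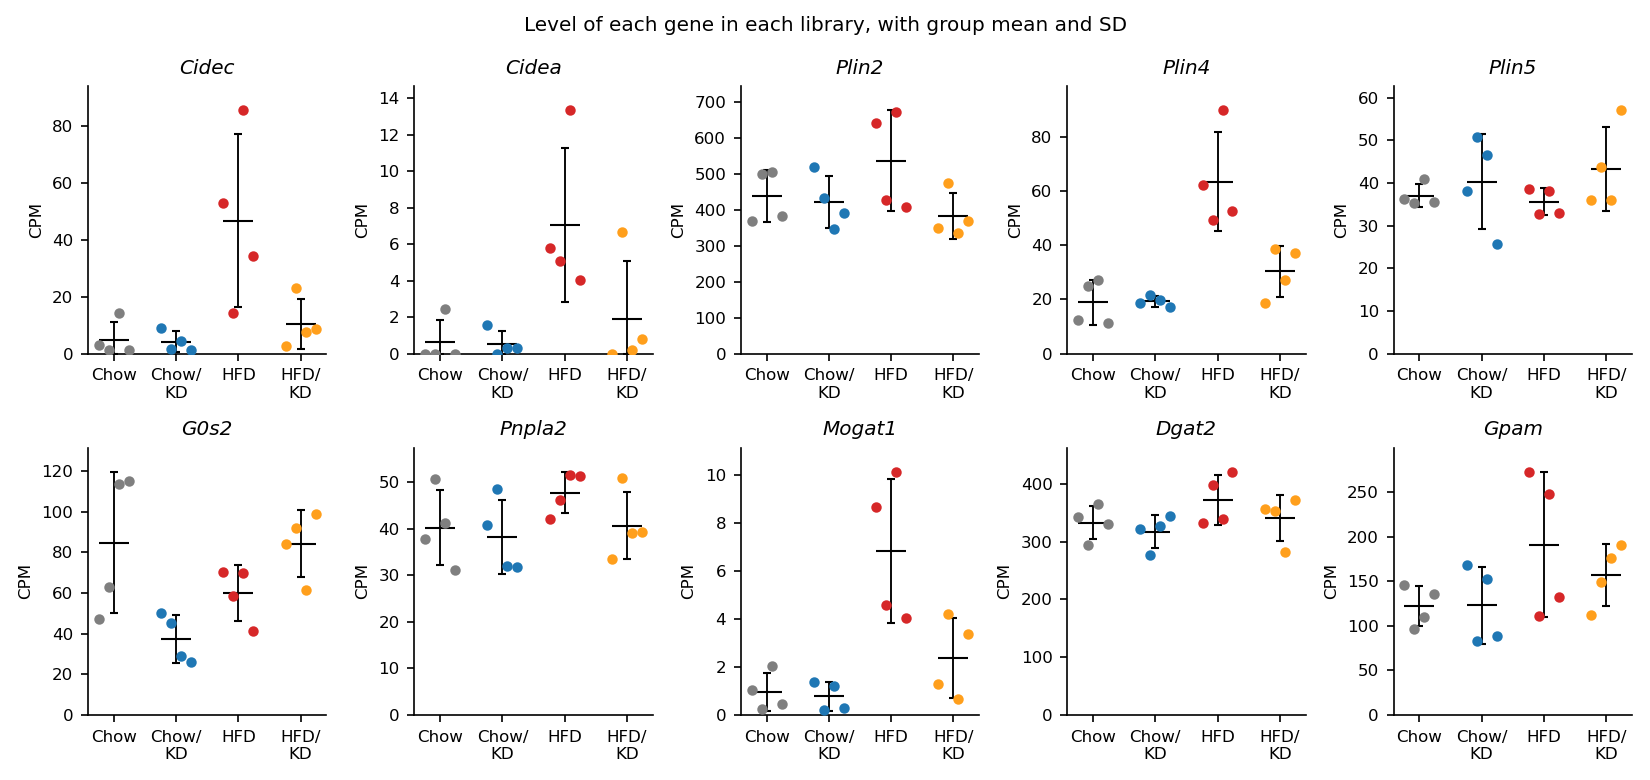
Level of each of the 10 genes in CPM (vertical axis, starting at 0) in the 4 groups, where each dot is a library and the bar and whiskers are the group mean and SD, with whiskers stopped at 0. All 4 HFD dots lie above all Chow dots for *Cidec*, *Cidea*, *Plin4* and *Mogat1*, and *G0s2* is lowest in Chow/FGFR4 KD.

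Per kilobase of transcript, the scale on which genes can be set against each other, *Plin2* was the most abundant member in HFD livers with a level of 285 ± 74.2 CPM per kb (SD, n = 4). *Dgat2* followed with 165 ± 19.2 and *G0s2* with 68.9 ± 15.6. Then came *Gpam* with 30.9 ± 13.1, *Cidec* with 27.2 ± 17.7, *Pnpla2* with 26.6 ± 2.47 and *Plin5* with 17.9 ± 1.61. *Plin4* was at 11.1 ± 3.20, *Cidea* at 6.32 ± 3.81 and *Mogat1* at 5.57 ± 2.44 CPM per kb. The means of *Gpam*, *Cidec* and *Pnpla2* lay within an SD of each other, as did those of *Cidea* and *Mogat1*. In Chow livers *Cidec* stood lower in the order, at 2.84 ± 3.64 CPM per kb, below *Plin5* at 18.6 ± 1.35. *Plin4*, which was below *Plin5* on both diets, was near *Cidec* at 3.30 ± 1.44. *Mogat1* and *Cidea* were again last, with 0.771 ± 0.643 and 0.546 ± 1.09.

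The comparison of HFD with Chow in saline-injected mice asked what the diet did. *Cidec*, the droplet fusion protein, and *Plin4*, a perilipin, rose on HFD, and the abundant coat protein gene *Plin2* was not called. Called means that a gene passed both cut-offs the study used, an unadjusted p under 0.05 and a p under 0.25 after Benjamini-Hochberg adjustment. By limma-voom, 2 of the 8 members tested were called higher and 0 lower, where 13.3% of all 11324 genes were called higher and 12.7% lower. Both were also past an adjusted p of 0.05, as were 4.55% of all genes in that direction, and in both the groups did not overlap, as in 8.33% of all genes. The median change of the 8 was 0.27 on the log2 scale, against 0.01 over all genes. The tissue was sampled in bulk, so fewer cells of a type and less RNA per cell cannot be told apart here or in any comparison below.

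*Cidec* was at 2.87, 1.30, 14.2 and 1.18 CPM in the 4 Chow livers and at 53.0, 14.2, 85.7 and 34.3 CPM in the 4 HFD livers. All HFD libraries lay above all Chow libraries, with Chow 3 and HFD 2 level to the digits printed. The group mean was 9.58-fold higher on HFD, and the fitted log2 change was 3.62 (SE 0.977, adjusted p 0.0281 by limma-voom). Without Chow 3, the high library of its group, the log2 change was 4.43. Chow 3 was also the highest Chow library for the adipocyte marker *Cfd*, at 11 CPM against 0.261 to 3.55 in the others. For the adipocyte marker *Lipe* it was the lowest, at 8.32 CPM against 8.41, 10.7 and 13.7. For *Fabp4* it lay within the others, at 3.65 CPM against 3.71, 2.87 and 3.79. *Aqp7* was highest in Chow 3, at 0.407 CPM (2 counts), and *Adipoq* had 1 count there and 0 in the other Chow libraries. *Retn*, with 1 count in Chow 3, lay within the others, and *Plin1* and *Lep* had 0 counts in it. The part of adipocyte RNA in the *Cidec* level of Chow 3 was not tested.

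*Plin4* was at 12.3, 25, 27.2 and 11.4 CPM in Chow and at 62.5, 49.4, 90.0 and 52.7 CPM in HFD. The lowest HFD library had more than the highest Chow library. The log2 change was 1.82 (SE 0.279, adjusted p 0.0013), a 3.35-fold difference of the group means.

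*Cidea* (ENSMUSG00000024526, chromosome 18 from 67343604 to 67367785), a CIDE relative of *Cidec*, was seen in a single Chow liver. It had 0, 0, 12 and 0 counts in Chow and 40, 31, 87 and 20 counts in HFD, or 0.609 ± 1.22 and 7.05 ± 4.25 CPM. The fitted log2 change was 4.61 (SE 1.38, adjusted p 0.0491). With 3 of 4 Chow libraries at 0 this size depends on the small offset added before the logarithm, and without Chow 3 it was 5.80.

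*Mogat1*, the monoacylglycerol acyltransferase, had 5, 1, 10 and 2 counts in Chow and 60, 28, 66 and 20 counts in HFD. The means were 0.947 ± 0.790 and 6.84 ± 3.00 CPM and the groups did not overlap. Its log2 change was 2.85 (SE 0.729, adjusted p 0.0241). In the fit with *Cidea* and *Mogat1*, 12.2% of 12985 genes were called higher. *Cidea* passed the looser filter only with the HFD libraries, while *Mogat1* also reached 1 CPM in enough libraries of the other groups. Neither passed the main filter, so nothing is read from their calls against that share.

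Limma-voom did not call the other enzymes and coat proteins. *Gpam*, the first acyltransferase of the glycerol phosphate route, was at 146, 96.3, 109 and 135 CPM in Chow and at 273, 111, 247 and 133 CPM in HFD. HFD 1 and 3 were high and HFD 2 and 4 lay within the Chow range, and the log2 change was 0.56 (SE 0.286, p 0.0669 unadjusted and 0.229 adjusted). *Gpam* was called higher by edgeR (log2 change 0.65, adjusted p 0.16), by DESeq2 (0.65, adjusted p 0.142), with quality weights (0.66, adjusted p 0.131), with library totals (0.84, adjusted p 0.0696), and without HFD 2 (0.79, adjusted p 0.0848) or HFD 4 (0.70, adjusted p 0.169). *Plin2* was at 370, 499, 505 and 385 CPM in Chow and at 644, 427, 674 and 407 CPM in HFD, again with HFD 1 and 3 high, and its log2 change was 0.27 (95% interval -0.11 to 0.64). *Dgat2*, which makes triglyceride from diacylglycerol, was at 333 ± 29.1 and 372 ± 43.5 CPM, a log2 difference of 0.16 (-0.07 to 0.38). The lipase gene *Pnpla2* was at 40.2 ± 8.07 and 47.8 ± 4.45 CPM, a difference of 0.27 (-0.06 to 0.59), and the gene of its inhibitor *G0s2* at 84.8 ± 34.8 and 60.0 ± 13.6 CPM, a difference of -0.42 (-1 to 0.15). Without Chow 1 the *G0s2* difference was -0.67 and was called (adjusted p 0.137), and it was -0.24 without Chow 3 or Chow 4 and -0.26 without HFD 4. *Plin5*, which ties droplets to mitochondria, was at 37.0 ± 2.69 and 35.6 ± 3.19 CPM, and its interval of -0.43 to 0.31 covers 0.

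**Figure D2:**
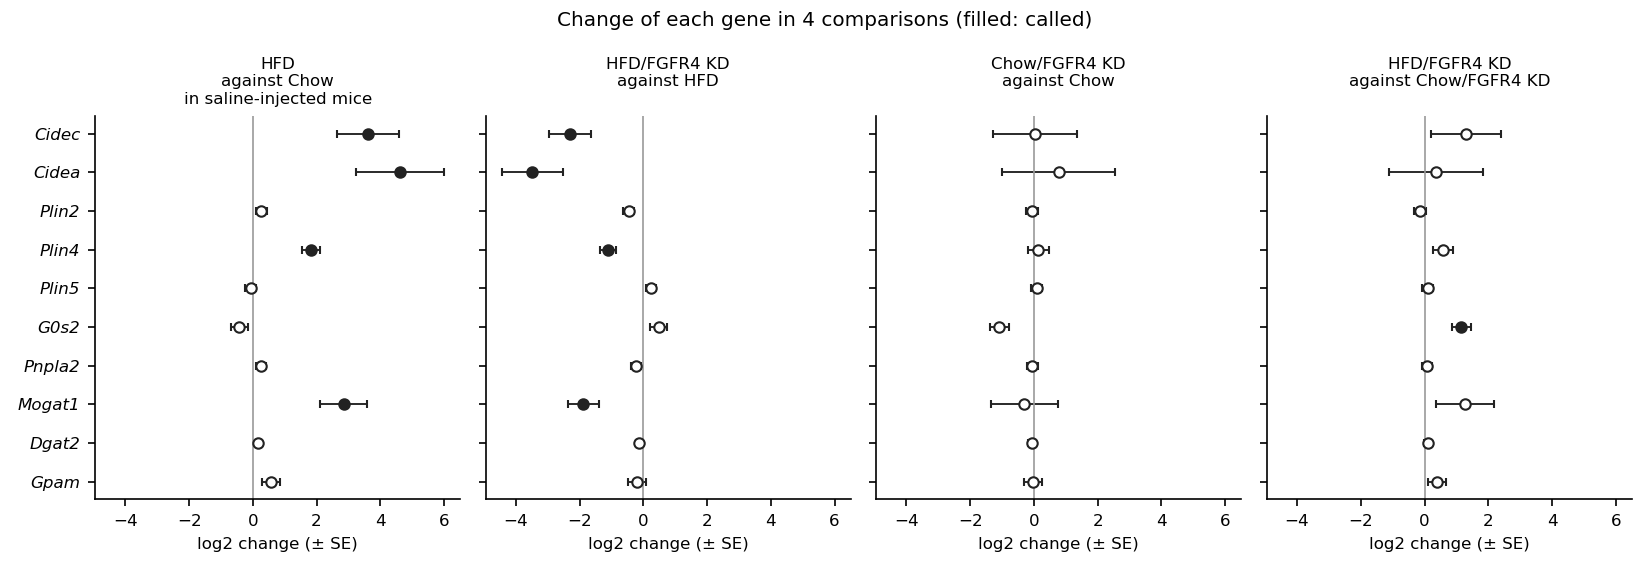
Fitted log2 change (horizontal axis, ± SE) of each of the 10 genes in 4 comparisons, with filled circles for genes that were called. *Cidec*, *Cidea*, *Plin4* and *Mogat1* are filled on the higher side for HFD against Chow and on the lower side for HFD/FGFR4 KD against HFD, and *G0s2* is filled for HFD/FGFR4 KD against Chow/FGFR4 KD.

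The comparison of HFD/FGFR4 KD with HFD asked what the knockdown did on the high-fat diet. *Cidec* and *Plin4* fell, and *Cidea* and *Mogat1* were lower in the fit that admitted them. By limma-voom, 2 of the 8 members were called lower and 0 higher, where 1.64% of all genes were called lower and 1.5% higher. At an adjusted p under 0.05 the count was 0 of 8, against 0.15% of all genes, while 3 had an unadjusted p under 0.05. The groups did not overlap for 1 member, *Plin4*, as for 3.33% of all genes. The median log2 change was -0.22 over the 8 members and 0 over all genes. This comparison uses the same HFD libraries as the diet comparison, so a chance high value in them would raise the one and lower the other.

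*Plin4* was at 18.6, 38.7, 27.2 and 37.1 CPM in HFD/FGFR4 KD, every library below the lowest HFD library at 49.4. It fell by 1.10 on the log2 scale (SE 0.25, adjusted p 0.0807), to 47.8% of the HFD mean. It stayed called without any 1 of the 16 libraries, with adjusted p from 0.0555 to 0.243. Without HFD/FGFR4 KD 1 the change was -0.89 (adjusted p 0.221).

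*Cidec* was at 2.60, 23, 7.64 and 8.55 CPM in HFD/FGFR4 KD. The highest of these, HFD/FGFR4 KD 2, lay above HFD 2 at 14.2, so the groups overlapped, and the other 3 lay below every HFD library. *Cidec* fell by 2.29 on the log2 scale (SE 0.657, adjusted p 0.185), and the mean of 10.5 ± 8.78 CPM was 22.3% of that in HFD. The call was lost when any of 5 libraries was left out. The adjusted p was then 0.393 (change -1.79) without HFD/FGFR4 KD 1, 0.382 without HFD/FGFR4 KD 3, 0.347 without HFD/FGFR4 KD 4, 0.367 without HFD 3 and 0.296 without HFD 1, and the sign was the same each time. It was also lost with DESeq2 (log2 change -2.16, adjusted p 0.304) and with only the 2 groups compared in the fit (adjusted p 0.300).

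*Cidea* had 0, 30, 1 and 3 counts in HFD/FGFR4 KD, and HFD/FGFR4 KD 2 lay above 3 of the 4 HFD libraries in CPM. Its log2 change was -3.48 (SE 0.951, adjusted p 0.174) by limma-voom, -1.93 by edgeR and -1.89 by DESeq2, and the group mean was 26.9% of that in HFD. Without HFD/FGFR4 KD 2 the change was -4.58, without HFD/FGFR4 KD 1 it was -2.72 (adjusted p 0.344), and the call was also lost without HFD/FGFR4 KD 3 (adjusted p 0.423) or 4 (0.345). Neither edgeR (adjusted p 0.503) nor the fit of only the 2 groups (0.295) called it, and DESeq2 gave no adjusted p.

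*Mogat1* had 6, 19, 4 and 13 counts in HFD/FGFR4 KD, where HFD had 20 to 66. In CPM the group mean was 2.38 ± 1.67, and HFD/FGFR4 KD 2, at 4.21, lay just above HFD 4 at 4.04. The log2 change was -1.88 (SE 0.499, adjusted p 0.15). It shrank to -1.28 without HFD/FGFR4 KD 3 (adjusted p 0.436) and was -1.77 without HFD/FGFR4 KD 1 (adjusted p 0.314). The call was lost in both fits, and also without HFD/FGFR4 KD 4 (0.256), HFD 1 (0.273) or HFD 3 (0.305). EdgeR and the fit of only the 2 groups both gave an adjusted p of 0.283, and DESeq2 gave none. In the fit with *Cidea* and *Mogat1*, 1.39% of 12985 genes were called lower. *Cidea* passed the looser filter only with the HFD libraries, which favours a lower value after the knockdown. *Mogat1* also reached 1 CPM in enough libraries of the other groups. Neither passed the main filter, so nothing is read from their calls against that share.

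**Figure D3:**
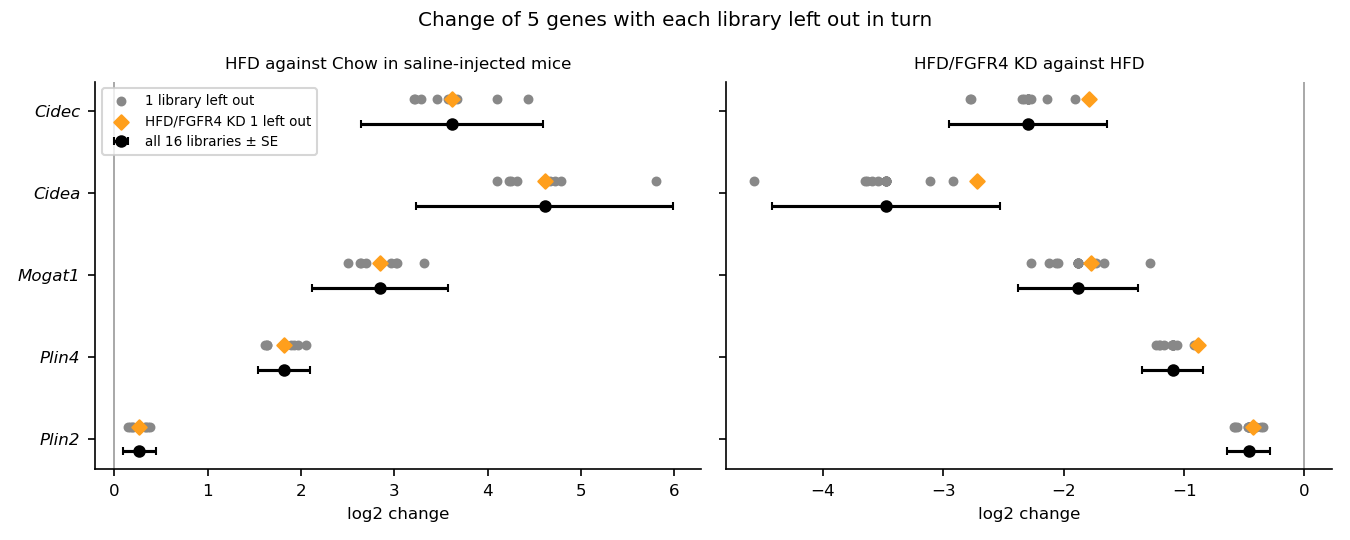
Log2 change (horizontal axis) of *Cidec*, *Cidea*, *Mogat1*, *Plin4* and *Plin2* for HFD against Chow and for HFD/FGFR4 KD against HFD, with all 16 libraries (black, ± SE) and with each library left out in turn (grey, and orange diamonds for HFD/FGFR4 KD 1). All points for *Cidec*, *Cidea*, *Mogat1* and *Plin4* keep their side of 0, and without HFD/FGFR4 KD 1 the *Cidec* change on the right is -1.79.

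Among the members not called by the knockdown on HFD, *Plin2* came nearest. It was at 349, 477, 335 and 371 CPM in HFD/FGFR4 KD, where HFD/FGFR4 KD 2 lay above the lower pair of HFD libraries. The log2 change was -0.46 (SE 0.177, p 0.0182 unadjusted and 0.331 adjusted). It was called without HFD 2 (adjusted p 0.209), HFD 4 (0.245) or HFD/FGFR4 KD 2 (0.216), with DESeq2 (0.244) and with library quality weights (0.188). *Gpam* was at 112, 149, 176 and 190 CPM, inside the HFD range, with a log2 change of -0.21 (95% interval -0.81 to 0.39). *Dgat2* was at 341 ± 39.7 CPM, a change of -0.13 (-0.35 to 0.10). *Pnpla2* was at 40.7 ± 7.28 CPM, a change of -0.24 (-0.56 to 0.08), and *Plin5* at 43.2 ± 9.90 CPM, a change of 0.24 (-0.12 to 0.60). *G0s2* was at 84.3, 92.1, 61.3 and 99.0 CPM against 70.3, 58.7, 69.8 and 41.2 in HFD, and its log2 change was 0.48 (-0.09 to 1.05, adjusted p 0.554). Without HFD/FGFR4 KD 1 the changes were -0.42 for *Plin2*, -0.06 for *Gpam*, -0.15 for *Dgat2*, -0.16 for *Pnpla2*, 0.31 for *Plin5* and 0.47 for *G0s2*, and none was called.

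On chow the knockdown was compared with saline. No member was called by limma-voom (0 of 8, against 0.00883% of all genes, which is *Fgfr4* alone), and edgeR called none either, while 1 had an unadjusted p under 0.05. That member was *G0s2*, with 47.4, 63.1, 114 and 115 CPM in Chow and 50, 45.3, 29.1 and 26.2 CPM in Chow/FGFR4 KD. Only Chow 1 fell within the range of the treated libraries. The log2 difference was -1.09 (SE 0.297, unadjusted p 0.00188, adjusted p 0.976), and DESeq2 gave -1.17 with an adjusted p of 0.229, past the threshold. *Cidec* was at 9.12, 1.60, 4.54 and 1.10 CPM in Chow/FGFR4 KD, a log2 difference of 0.03 whose interval, from -2.76 to 2.82, is too wide to tell a large change from none. *Plin4* was at 18.8, 21.7, 19.7 and 17.1 CPM, a difference of 0.14 (95% interval -0.54 to 0.82), and *Plin2* at 423 ± 73.1 CPM, a difference of -0.06 (-0.43 to 0.31). *Pnpla2*, *Dgat2* and *Gpam* were at 38.3 ± 8, 317 ± 28.8 and 123 ± 43.2 CPM, with log2 differences from -0.07 to -0.03. *Plin5* was at 40.3 ± 11.1 CPM, a difference of 0.08. *Cidea* had 8, 0, 1 and 1 counts and *Mogat1* had 7, 1, 4 and 1 counts, too few for a comparison with Chow.

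The test of the difference between the knockdown effects on the 2 diets called no member (0 of 8 by limma-voom, against 0.0353% of all genes), edgeR called none, and 2 had an unadjusted p under 0.05. For *G0s2* this difference was 1.57 on the log2 scale (SE 0.402, unadjusted p 0.00114, adjusted p 0.491), and DESeq2 called it (1.66, adjusted p 0.018). For *Plin4* it was -1.24 (SE 0.409, unadjusted p 0.0078, adjusted p 0.575). For *Cidec* it was -2.32 (SE 1.47, adjusted p 0.805), so a smaller effect of the knockdown on chow than on HFD was not shown for *Cidec*. Without HFD/FGFR4 KD 1 these differences were 1.56 for *G0s2*, -1.03 for *Plin4* and -1.82 for *Cidec*.

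Between the diets within knockdown mice, limma-voom called *G0s2* higher on HFD and no other member. That was 1 of 8 members, where 10.1% of all genes were called higher. All 4 HFD/FGFR4 KD libraries, from 61.3 CPM up, lay above all Chow/FGFR4 KD libraries, up to 50 CPM, and 5.93% of all genes were separated in this direction. The log2 change of *G0s2* was 1.15 (SE 0.295, adjusted p 0.0445), and it stayed called without any 1 library (1.14 without HFD/FGFR4 KD 1). *Cidec* differed by 1.29 (95% interval -1.04 to 3.62, adjusted p 0.552), *Mogat1* by 1.27 (-0.62 to 3.16) and *Cidea* by 0.36 (-2.72 to 3.44). Without HFD/FGFR4 KD 1 the differences were 1.80 for *Cidec*, 1.38 for *Mogat1* and 1.11 for *Cidea*, and limma-voom called none of them. *Mogat1* was called by edgeR (1.49, adjusted p 0.244) and DESeq2 (1.57, adjusted p 0.192). *Plin4* differed by 0.58 (-0.05 to 1.21, adjusted p 0.287). It was called without HFD/FGFR4 KD 1 (0.79, adjusted p 0.116) or HFD 3 (adjusted p 0.242), and with edgeR (0.208), DESeq2 (0.185), quality weights (0.156), scaling by library totals (0.232) or only the 2 groups in the fit (0.193).

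Within groups, the same livers were often the highest for several members, though not for all. How common such an order is among all genes was not tested. HFD 3 was the highest HFD library for *Cidec*, *Cidea*, *Plin2*, *Plin4*, *Mogat1* and *Pnpla2*, and HFD/FGFR4 KD 2 the highest of its group for the same genes. Chow 3 was the highest Chow library for *Cidec*, *Cidea*, *Plin2*, *Plin4*, *Plin5*, *Mogat1* and *Dgat2*. HFD/FGFR4 KD 1 was the lowest of its group for *Cidec*, *Cidea*, *Plin4*, *Plin5*, *Pnpla2* and *Gpam*. The spread within HFD differed between members. The SD was 64.9% of the mean for *Cidec*, 60.3% for *Cidea*, 43.8% for *Mogat1*, 42.4% for *Gpam*, 29% for *Plin4*, 26% for *Plin2* and 22.7% for *G0s2*, and it was 11.7% for *Dgat2*, 9.31% for *Pnpla2* and 8.97% for *Plin5*.

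**Figure D4:**
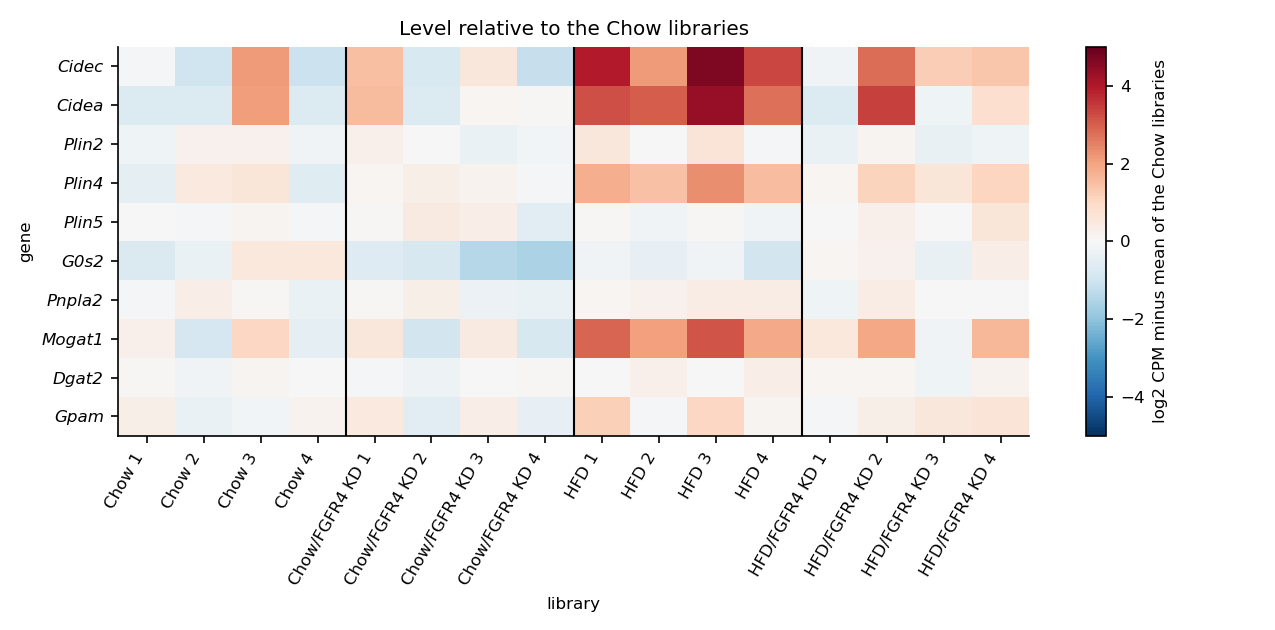
Log2 CPM of each of the 10 genes (rows) in each of the 16 libraries (columns) minus the mean of the 4 Chow libraries, with red for higher and blue for lower. *Cidec*, *Cidea*, *Plin4* and *Mogat1* are red in all HFD columns, HFD/FGFR4 KD 2 resembles them, and *G0s2* is blue in the Chow/FGFR4 KD columns.

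Over the 16 libraries, the Pearson correlation of log2 CPM with *Cidec* was 0.94 for *Mogat1*, 0.93 for *Cidea*, 0.88 for *Plin4*, 0.70 for *Gpam* and 0.61 for *Plin2*. It was 0.55 for *Pnpla2*, 0.43 for *Dgat2*, 0.21 for *G0s2* and 0.12 for *Plin5*. These values describe the pattern, and the points share the diet groups and the library depth. Among the other genes tested, the 5 most like *Cidec* were *Cryz*, *Ppif* and *Lgals1*, each at 0.94, and *Vnn3* and *Itgb5*, each at 0.93. *Lgals1*, which encodes the sugar-binding protein galectin 1, was at 12.4 ± 7.66 CPM in Chow, 14.8 ± 1.65 in Chow/FGFR4 KD, 52.5 ± 18.6 in HFD and 23.3 ± 10.4 in HFD/FGFR4 KD. *Cryz*, a quinone reductase, was at 61.8 ± 9.77, 60.1 ± 9.19, 98.5 ± 11.3 and 72.7 ± 10.9 CPM in the same order.

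The other genes of the pathway and the marker genes were taken from fixed lists. Each list count below is read against the share of all genes called, which was 13.3% higher and 12.7% lower for HFD against Chow and 1.64% lower and 1.5% higher for the knockdown on HFD. Of 11 other droplet proteins tested, 5 rose and 2 fell on HFD, with a median log2 change of 0.29 against 0.01 for all genes. *Plin3*, a perilipin found in most tissues, rose by 0.77 (SE 0.140, adjusted p 0.00369), *Hsd17b13*, a liver droplet enzyme, by 0.59 (adjusted p 0.0447), and *Cideb*, the CIDE gene of normal liver, by 0.29 (adjusted p 0.0467). *Aup1* and *Faf2* fell by 0.23 and 0.20. With the knockdown on HFD, 0 rose and 2 fell, with a median of -0.19. These were *Fitm2*, which helps droplets bud from the endoplasmic reticulum, at 79.1 ± 9.06 CPM in HFD and 52.3 ± 10.2 in HFD/FGFR4 KD (log2 change -0.62, adjusted p 0.0807), and *Hsd17b11* (-0.33, adjusted p 0.174). *Fitm2* stayed called without any 1 library (-0.68 without HFD/FGFR4 KD 1), and the *Hsd17b11* call was lost without HFD 1 or 3 or HFD/FGFR4 KD 1 (-0.30, adjusted p 0.366), 3 or 4. *Plin1*, the perilipin of adipocytes, had at most 2 counts in any library.

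Of 14 further genes of triglyceride synthesis, 4 rose and 1 fell on HFD, and the median was -0.13. *Gpat3*, a glycerol phosphate acyltransferase like *Gpam*, rose from 3.51 ± 1.28 to 10.4 ± 4.82 CPM (log2 change 1.56, SE 0.421, adjusted p 0.0281), the acylglycerol phosphate acyltransferase *Agpat3* by 0.43 (adjusted p 0.00306) and the phosphatidate phosphatase *Lpin3* by 0.67 (adjusted p 0.123), while *Acsl4* fell by 0.61 (adjusted p 0.0663). With the knockdown on HFD *Acsl3*, which activates fatty acids at the droplet, rose from 19.1 ± 9.62 to 36.7 ± 8.54 CPM (log2 change 1.04, adjusted p 0.177), and no other gene of the list was called. The *Acsl3* call was lost without HFD 4 or HFD/FGFR4 KD 3 or 4 (adjusted p up to 0.383), and without HFD/FGFR4 KD 1 the change was 1.22. *Dgat1*, the other enzyme of the last step, was at 15 ± 2.02 CPM in Chow and 13.7 ± 1.23 in HFD and was not called.

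Of 10 further genes of triglyceride hydrolysis, 2 rose and 4 fell on HFD, with a median of -0.04. *Mgll*, the monoacylglycerol lipase, rose by 0.88 (SE 0.167, adjusted p 0.00465) and the lysosomal lipase gene *Lipa* by 0.51 (adjusted p 0.0884). *Abhd5*, the coactivator of PNPLA2, fell from 34.0 ± 6.85 to 22.2 ± 2.35 CPM (log2 change -0.60, adjusted p 0.0201), and the carboxylesterase genes *Ces1d* and *Ces1f* fell by 0.85 and 0.47 (adjusted p 0.0155 and 0.0186). With the knockdown on HFD 4 fell and 0 rose, and the median was -0.37 against 0 for all genes. *Ces1f* fell by 0.49 (adjusted p 0.0904), *Abhd6* by 0.61 (adjusted p 0.102) and *Mgll* by 0.59 (adjusted p 0.174). *Ces1f* stayed called without any 1 library. The *Abhd6* call was lost without HFD 3 or HFD/FGFR4 KD 4 (adjusted p up to 0.302), and the *Mgll* call without HFD 1 or 3 or HFD/FGFR4 KD 1 (-0.48, adjusted p 0.387), 3 or 4 (adjusted p up to 0.428). *Abhd5* was at 22.1 ± 3.10 CPM after the knockdown, level with HFD.

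Of 10 transcription factors of lipid metabolism, 4 rose and 1 fell on HFD. *Pparg*, the nuclear receptor that drives adipocyte genes, rose from 6.79 ± 4.72 to 13.4 ± 4.27 CPM (log2 change 1.05, adjusted p 0.0719), *Ppara* from 94.8 ± 18.2 to 143 ± 13.0 (0.61, adjusted p 0.0119) and *Srebf1* from 76.6 ± 22.3 to 135 ± 37.8 (0.82, adjusted p 0.0852), and *Creb3l3* fell by 0.23. With the knockdown on HFD limma-voom called 0 of the 10, and *Pparg* alone had an unadjusted p under 0.05. It was at 7.42 ± 1.91 CPM in HFD/FGFR4 KD, a log2 change of -0.76 (unadjusted p 0.0318, adjusted p 0.393). For the knockdown on chow, and for the difference between its effects on the diets, limma-voom called 0 genes of these 4 lists, where between 0 and 3 genes of a list had an unadjusted p under 0.05.

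Markers of other cell types moved with the diet, and few were called with the knockdown on HFD. On HFD 8 of 8 macrophage markers rose, and their summed level was 64.2 to 72.8 CPM in Chow, 80.2 to 108 in Chow/FGFR4 KD, 121 to 212 in HFD and 96.7 to 173 in HFD/FGFR4 KD. With the knockdown on HFD 0 of 8 were called by limma-voom, and 1 had an unadjusted p under 0.05. Of the stellate cell and fibroblast markers 3 of 6 rose on HFD and 0 were called with the knockdown on HFD (1 at an unadjusted p under 0.05), with sums of 90.2 to 131 CPM in Chow, 149 to 264 in HFD and 105 to 180 in HFD/FGFR4 KD. Of 4 endothelial markers 1 rose on HFD, of 7 hepatocyte markers 3 fell on HFD and 1 fell with the knockdown on HFD, and the 1 cholangiocyte marker tested was called in neither comparison.

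Because CIDEA, CIDEC and PLIN4 are adipocyte proteins, adipocyte markers without the members were read beside them. Of 8 markers 3 passed the filter, 2 of them rose on HFD and 1 fell with the knockdown on HFD. The summed level of the 8 was 14.1 to 23.7 CPM in Chow, 7.88 to 19.2 in Chow/FGFR4 KD, 38.4 to 53.5 in HFD and 18.4 to 33.9 in HFD/FGFR4 KD. Most of it came from *Cfd*, *Fabp4* and *Lipe*. The other markers of the list had few counts. *Lep* had 0 counts in all 16 libraries. *Adipoq* had at most 1 count in any HFD or HFD/FGFR4 KD library and 4 in Chow/FGFR4 KD 3. *Plin1* had 0 counts in every HFD library and 2 in Chow/FGFR4 KD 3. *Cfd* was at 12.5, 22.4, 10.7 and 24.4 CPM in HFD and at 6.72, 8.19, 3.65 and 4.40 in HFD/FGFR4 KD, highest in HFD 2 and HFD 4. *Fabp4* was at 13.4, 9.18, 19 and 8.08 CPM in HFD and at 4.89, 11.7, 9.21 and 11.9 in HFD/FGFR4 KD, and *Aqp7* was seen in HFD 3 (1.25 CPM) and HFD 1 (0.458) and was at 0 in HFD 2 and HFD 4. For *Fabp4* and *Aqp7* HFD 3 and then HFD 1 were the highest HFD libraries, as they were for *Cidec*, and for *Cfd* they were the lowest. *Lipe*, at 12, 10.3, 17.3 and 20.8 CPM in HFD 1 to 4, was highest in HFD 4 and then HFD 3. *Aqp7* did not pass the filter and had at most 8.2 counts in an HFD library.

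Genes that follow the time of day and the state of feeding also moved. Of 13 clock genes 6 rose and 5 fell on HFD, with *Dbp*, *Per3* and *Tef* higher by 4.32, 2.64 and 1.11 and *Arntl*, *Nfil3* and *Clock* lower by 2.09, 1.89 and 1.08 on the log2 scale. With the knockdown on HFD 3 rose (*Arntl*, *Clock*, *Nfil3*) and 2 fell (*Per2*, *Dbp*). Several of these calls rest on few libraries. *Dbp* (adjusted p 0.249) was not called in 11 of 16 fits with 1 library left out, nor in 8 of 11 alternatives. *Clock*, *Nfil3* and *Per2* each lost the call in 5 of the 16, HFD/FGFR4 KD 1 among those left out (0.44, 0.98 and -0.94), and *Arntl* lost it in 2, without HFD 3 or HFD/FGFR4 KD 4 (adjusted p up to 0.269). *Arntl*, whose protein is a core clock activator, was at 20.2 ± 5.95 CPM in Chow, 22.5 ± 2.68 in Chow/FGFR4 KD, 5.08 ± 3.16 in HFD and 14 ± 3.90 in HFD/FGFR4 KD. Of 10 genes of fasting and feeding 3 rose on HFD (among them *Cpt1a*) and 5 fell (among them *Angptl4*, *G6pc* and *Irs2*), and 0 were called with the knockdown on HFD by limma-voom (3 at an unadjusted p under 0.05). The part of clock phase, feeding and the adipocyte, macrophage and fibroblast markers in the members' changes was not tested.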

How the data were processed

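Liver RNA from 16 mice in 4 groups of 4 was sequenced. The labels name a KAPA mRNA HyperPrep kit, and the methods of the study name HTG EdgeSeq. Submitters' processing notes name fastp, kallisto and GRCm38, with no versions given in the sources used here. According to the methods, the authors pseudoaligned reads with kallisto and summed transcripts to genes, so the deposited values are expected counts (estimated counts that need not be whole), with no scaling. Total counts, from 3445949 to 5976449, limit the precision of genes with few counts.

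Groups came from the labels. Genes under 1 CPM in more than 4 libraries were dropped, which left 11324, fewer than the paper reports for liver. *Cidea* and *Mogat1* were fitted among 12985 genes with 1 CPM in at least 4 libraries. Counts were scaled with TMM (edgeR 4.0.16) and fitted with limma-voom (limma 3.58.1, R 4.3.3) with a mean per group and all 16 libraries; p-values were Benjamini-Hochberg adjusted over all genes of a fit. Adjusted p-values in the text are from limma-voom unless another tool is named. Intervals are 95% intervals of the limma fit. The members and lists were chosen with earlier results of these data known. All members were named, and for each pathway list at most 3 called genes per direction with the smallest p in HFD against Chow and in HFD/FGFR4 KD against HFD, plus the 5 genes most like *Cidec* in log2 CPM (prior count 2). Some genes that this rule names are not reported here. Other genes (*Dgat1*, *Plin1*, *Abhd5* after the knockdown, *Pparg* after the knockdown, the adipocyte markers) were picked from the lists after their values were seen. Each result was recomputed with the quasi-likelihood test of edgeR, with DESeq2 1.42.0 after rounding, with other filters and scalings, without *Gm42418* (11.07% to 22.7% of counts) and *Lars2*, with quality weights, with a block for the replicate number, with the compared groups alone, at an adjusted p of 0.05, and without each library in turn.

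Pairs of libraries within a group differed by more than sampling noise (chi-square divided by its degrees of freedom, 7.59 to 72.6). This ratio was 11.4 for HFD 1 with HFD 3 and 11.7 for HFD 2 with HFD 4. It was 34.7 to 58.9 for HFD 1 or 3 with HFD 2 or 4. The fit was tested on simulated counts of HFD/FGFR4 KD against HFD over 11324 genes: of 200 genes changed 2-fold it called 65%, with 27.8% of calls false. The simulation gave every gene the same spread beyond counting noise and held no outlying library. Its rates therefore need not hold for members with a wide spread, such as *Cidec*. Promoters are from RefSeq (GRCm38.p6), symbols were found for 98.3% of identifiers, and Python 3.11.15 prepared the tables.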

Additional observations from a re-analysis of the deposited data

Results flagged for a closer look

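A value was singled out where the highest or lowest library of a group of 4 lay far from the rest by Dixon's rule at the 95% level, which chance meets in about 1 of 20 groups. Of 40 groups of values (10 genes in 4 groups), 3 were singled out, where chance would give 2. *Cidec* in Chow 3 was at 14.2 CPM, with the next Chow library at 2.87. *Cidea* in the same library was at 2.43 CPM, with 0 in the others. *Cidea* in HFD/FGFR4 KD 2 was at 6.64 CPM, with the next library of its group at 0.777.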

How the results depend on the processing

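Of 1536 changes of single genes recomputed with 1 library left out, 1425 kept their direction and side of the threshold, 67 lost the call, 10 gained it and 34 changed sign. Of 1045 recomputed under the other alternatives, 961 kept both, 49 lost the call, 19 gained it and 16 changed sign. For HFD against Chow, *Cidec* and *Plin4* stayed called under every alternative and without any 1 library. *Cidea* and *Mogat1* did not pass the main filter and were not tested under it. Both stayed called in the fits that admitted them. *Cidea* passed the looser filter only with the HFD libraries, so nothing is read from its calls. The 8 members gave these counts of calls without 1 library: 2 to 4 for HFD against Chow (4 without HFD 4, where *Gpam* and *Plin2* were added), 1 to 3 for HFD/FGFR4 KD against HFD, 0 for the knockdown on chow, 1 to 2 for HFD/FGFR4 KD against Chow/FGFR4 KD and 0 for the difference between the diets.

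Other alternatives moved counts as follows. HFD against Chow gave 3 with edgeR, DESeq2 and quality weights, *Gpam* being added each time, and 6 with library totals only, a scaling that moved the median of all genes to 0.29 and made 92.1% of its 4306 calls higher, against 2939 calls with TMM. The knockdown on HFD gave 3 with quality weights, where *Plin2* was added, 1 with only the groups compared and 0 at an adjusted p under 0.05. HFD/FGFR4 KD against Chow/FGFR4 KD gave 2 with edgeR, DESeq2, library totals, quality weights and only the groups compared. The knockdown on chow and the difference between the diets each gave 1 with DESeq2, both times *G0s2*. Over all genes the knockdown on HFD called 356 genes, 114 with library totals, 776 with quality weights and 31 at an adjusted p under 0.05. With 1 library left out that count ran from 89 (without HFD 3) to 622 (without HFD 2). The difference between the diets called 4 genes with limma-voom and 62 with DESeq2. HFD against Chow gave 1042 at an adjusted p under 0.05. No filter gave 5324 calls for HFD against Chow, 39.3% of them higher. The cause of these shifts was not tested.

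Signs changed in changes that were not called, except where library totals shifted all genes. For the knockdown on chow, *Cidec* was -0.253 with edgeR and -0.264 with DESeq2, *Cidea* -0.135 and -0.167, and *Gpam* 0.017 and 0.012. *Gpam* was also 0.012 with library totals and 0.007 with quality weights, and *Pnpla2* 0.017 with quality weights. With library totals HFD against Chow was 0.222 for *Plin5*, 0.072 for *Fgfr4*, 0.051 for *Aup1*, 0.081 for *Faf2* and 0.054 for *Creb3l3*, and *Plin2* was 0.021 for HFD/FGFR4 KD against Chow/FGFR4 KD.

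With 1 library left out, the knockdown on chow ran from -0.019 to 1.967 for *Cidea*, -0.607 to 0.843 for *Cidec*, -0.216 to 0.134 for *Gpam*, -0.734 to 0.161 for *Mogat1*, -0.164 to 0.031 for *Plin2*, -0.057 to 0.373 for *Plin4*, -0.052 to 0.269 for *Plin5* and -0.172 to 0.058 for *Pnpla2*. The difference between the diets ran from -0.122 to 0.029 for *Dgat2*, -0.394 to 0.017 for *Fgfr4*, -0.400 to 0.032 for *Gpam* and -0.029 to 0.293 for *Plin5*. HFD/FGFR4 KD against Chow/FGFR4 KD ran from -0.740 to 1.150 for *Cidea*, -0.088 to 0.234 for *Plin5* and -0.033 to 0.199 for *Pnpla2*.

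Groups share replicate numbers 1 to 4 in the labels. Of 16 same-numbered pairs 3 had correlated deviations over 0.1, and 3 samples correlated best with their own number, so the numbers were not taken as pairs. With the replicate block, *Cidec* for the knockdown on chow was -0.182, *Gpam* was called for HFD against Chow (adjusted p 0.169), and the counts of members called were 3 for HFD against Chow, 2 for the knockdown on HFD, 0 on chow, 1 for HFD/FGFR4 KD against Chow/FGFR4 KD and 0 for the difference. The block moved all-gene calls for the knockdown on HFD from 356 to 259. Depth limits *Cidea* and *Mogat1* most, where a few counts separate libraries.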
